A study of Mus musculus with 18 samples.

Results

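The clustered histone genes encode the H1, H2A, H2B, H3 and H4 proteins that package newly copied DNA. They were taken as every gene in the deposited tables whose symbol begins with Hist1h, Hist2h, Hist3h or Hist4h. This gave 60 of the 14686 genes listed in any table: 6 H1, 18 H2A, 18 H2B, 6 H3 and 12 H4 genes. GENCODE release M 21 holds 70 genes of such a name, and the other 10 were not analysed here.

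RNA had been sequenced from limb buds of mouse embryos (mesenchyme under a sheet of ectoderm, from which the limb grows), in 6 groups of 3 libraries. The groups were wild type CD1 forelimb at e10.5, wild type CD1 hindlimb at e11.0, and BALB/c hindlimb, wild type or Pitx1 null, at e11.0 and at e11.5 (e, embryonic day). Pitx1 is a homeodomain transcription factor of the hindlimb, and the study asked how fore- and hindlimb buds of like shape differ and what part of the hindlimb programme depends on Pitx1. Libraries at e10.5 and e11.0 held total RNA depleted of ribosomal RNA, while those at e11.5 held RNA enriched for mRNA. Strand was kept in all but the 2 replicate 3 libraries at e11.5. The null allele is not described further in the labels, and nothing in them says that replicates came from separate litters, so p-values measure the spread between these libraries only.

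Most clustered histone mRNAs are unlike other mRNAs: they have no introns and end at a short stem-loop rather than in a poly(A) tail. The stem-loop is bound by the protein Slbp, and the mRNAs are made and translated mainly while DNA is copied, in S phase. Replacement histones such as H2afz, H3f3a and H3f3b lie outside the clusters, have ordinary polyadenylated mRNAs and are made throughout the cell cycle. A library enriched on poly(A) tails and one depleted of ribosomal RNA therefore sample these 2 kinds of histone mRNA differently.

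In GENCODE release M 21 (GRCm38), 47 of the 48 Hist1 genes lay on chromosome 13 between 21715763 and 23934156, and Hist1h2al lay apart at 51202727 to 51203065. The 8 Hist2 genes lay on chromosome 3 between 96219865 and 96279001, the 3 Hist3 genes on chromosome 11 between 58948920 and 58956830, and Hist4h4 on chromosome 6 at 136801553 to 136804415. Of the 60 genes 55 had a single exon, 56 were annotated as protein coding and 3 as pseudogenes (Hist1h2aj, Hist1h2al and Hist3h2bb-ps). The identifier listed for Hist2h2bb belongs to a long noncoding RNA in that release, and the one listed for Hist2h2aa1 to Hist2h2aa2. Both are given here under the name in the deposited tables. All 12 H4 genes encoded 1 protein of 103 residues, the 6 H3 genes 2 proteins and the 6 H1 genes 6 different proteins. The genes also share RNA sequence: 28 members had more than 50% of their 50-base stretches in common with another annotated gene, with a median of 73.2% over H2A, 34.2% over H4 and 1.12% over H1 genes. The sources used here do not say how reads that fit several genes were counted, and the reads of such copies may be split or lost.

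The stem-loop was searched as GG, any 2 bases, CTTTT, any base, AG, any 2 bases and CC, in up to 200 bases after the stop codon of each annotated transcript. It was found in 39 of the 45 members with enough annotated sequence, and in 10 of 21025 coding genes that are no members (0.0476%). Of these 10, all but Lrrc75b, Nova2 and Zfp521 are histone genes: H2afx, H2bfm and 5 further clustered histone genes of GENCODE (Hist1h3d, Hist1h3f, Hist1h4m, Hist2h3c1 and the gene that GENCODE names Hist2h2aa1). The commonest form was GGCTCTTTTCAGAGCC, in 23 members of types H1, H2A, H2B and H3. The form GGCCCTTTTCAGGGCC stood in 6 members, all of type H4, and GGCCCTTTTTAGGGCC in the H4 genes Hist1h4i and Hist2h4. The search found no match on the reverse strand of a member. The lines that follow show it, in capitals with up to 5 flanking bases, for 8 members whose values are described further on. Their positions are chr13:23739507-23739532 (Hist1h1c, plus strand), chr13:23570663-23570688 (Hist1h2ae, minus), chr3:96220413-96220438 (Hist2h2ac, minus), chr11:58955167-58955192 (Hist3h2a, plus), chr11:58949344-58949369 (Hist3h2ba, plus), chr13:23745042-23745067 (Hist1h3c, minus), chr13:23581945-23581970 (Hist1h4d, plus) and chr13:22040961-22040986 (Hist1h4i, minus).
Hist1h1c: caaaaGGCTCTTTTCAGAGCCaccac
Hist1h2ae: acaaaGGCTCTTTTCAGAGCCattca
Hist2h2ac: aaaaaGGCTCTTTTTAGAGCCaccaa
Hist3h2a: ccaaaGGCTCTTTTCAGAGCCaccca
Hist3h2ba: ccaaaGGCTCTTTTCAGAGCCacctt
Hist1h3c: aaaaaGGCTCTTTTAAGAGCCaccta
Hist1h4d: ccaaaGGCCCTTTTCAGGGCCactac
Hist1h4i: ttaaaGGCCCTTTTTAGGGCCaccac

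The poly(A) signal AATAAA, which directs ordinary cleavage and polyadenylation, stood in the last 50 bases of an annotated transcript for 13 members, against 69.5% of all coding genes. Of these 13, 8 had no value at e11.5. Among the 8, a stem-loop was also found in Hist1h1t, Hist1h2be, Hist1h2bp, Hist1h4j, Hist2h4 and Hist4h4, and none in Hist1h2bq and Hist1h4a. In the other 5 the signal followed a stem-loop in Hist3h2a, Hist3h2ba, Hist1h1c and Hist1h2ae. It stood alone in Hist2h2be, whose annotated transcript of 2620 bases has no stem-loop within 200 bases of the stop codon. The next lines give 30 bases near the ends of the transcripts of these 5 genes with the signal in capitals, from chr3:96223709-96223738 (Hist2h2be, plus strand), chr11:58956791-58956820 (Hist3h2a, plus), chr11:58949501-58949530 (Hist3h2ba, plus), chr13:23740336-23740365 (Hist1h1c, plus) and chr13:23570521-23570550 (Hist1h2ae, minus).
Hist2h2be: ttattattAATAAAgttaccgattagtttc
Hist3h2a: atgcccAATAAAataagagtacgtgtataa
Hist3h2ba: ggtattAATAAAtttggttcaattttggcc
Hist1h1c: gcttctAATAAAaagcgtttagttttcatt
Hist1h2ae: ttctccAATAAAtgggtcaatttttttcag

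Depth ranged from 17.4 M to 53.6 M reads on the genes listed (M, 1000000). Every level is a deposited CPM, a library's reads on a gene for each 1000000 of its reads on listed genes, and means carry the SD over 3 libraries. A fold change is a difference of log2(CPM + 1), with its standard error (SE) after the ± sign. Each table was tested alone with limma, with a term for the run and Benjamini-Hochberg adjustment over all its genes, and a gene is called at an adjusted p under 0.05. Pitx1 was at 0.462, 0.326 and 0.266 CPM in CD1 forelimb and 223, 221 and 183 CPM in CD1 hindlimb. It was at 136, 114 and 122 CPM in wild type and 22.9, 19.3 and 21.3 CPM in null hindlimb at e11.0, and at 319, 330 and 364 CPM in wild type and 72.1, 78.8 and 88.6 CPM in null at e11.5, so the null libraries keep Pitx1 reads but lie below wild type in both tables. Limb mesenchyme markers (Prrx1, Msx1 and others) summed to 759 to 2449 CPM over all libraries. Surface ectoderm markers summed to 238 to 969 CPM, erythroid markers to 2616 to 17720 CPM and endothelial markers to 105 to 424 CPM. In BALB/c the titles give replicate 3 another run than replicates 1 and 2. In CD1 they name no run for replicate 3, and the run term sets it apart there too without a label that says it was another run.

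In the ribosomal depleted libraries the members were among the abundant RNAs. They took 1.66% to 2.27% of the reads in the CD1 libraries and 2.17% to 2.78% in the BALB/c libraries at e11.0. In wild type hindlimb at e11.0 the 60 members summed to 23093 ± 1236 CPM, of which H4 genes gave 7107 ± 1032, H1 genes 5853 ± 294, H2B genes 4549 ± 319, H2A genes 3507 ± 194 and H3 genes 2077 ± 204 CPM. Of the 60 members 46 had a mean over 100 CPM in that group. The H4 genes took 28.3%, 29.6% and 34.1% of the members' reads in replicates 1, 2 and 3, and 29.6%, 29.2% and 35.8% in null hindlimb, so in both groups replicate 3 was the highest.

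Per kb of annotated exon, the highest members in wild type hindlimb at e11.0 were Hist1h1a, a replication-linked linker histone (1958 CPM per kb), Hist1h4h (1644) and Hist1h2bb (1594). Hist1h1a was at 1433, 1589 and 1331 CPM in wild type and 1582, 1781 and 1566 CPM in null. In CD1 forelimb the order was led by the annotated pseudogene Hist1h2al (1998 CPM per kb), Hist1h4k (1503) and Hist1h1a (1496). Annotated exons of several members stop near the stop codon (339 bases in Hist1h2al, 312 in Hist1h4k), which raises a value per kb.

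**Figure D1:**
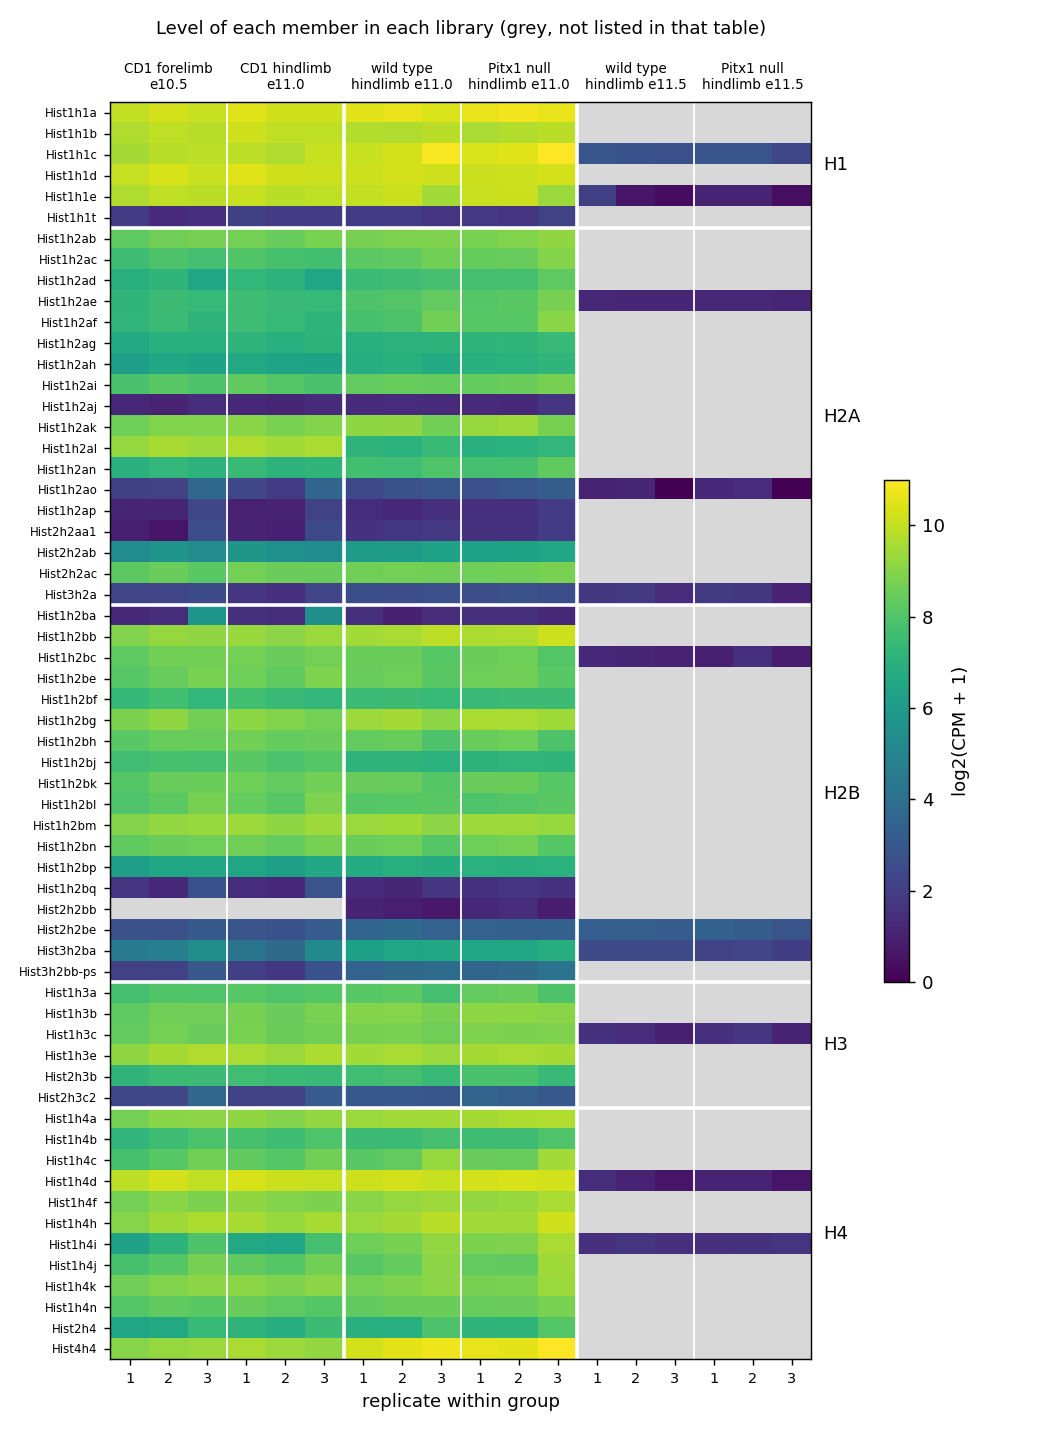
Level of each of the 60 members (rows, by histone type) in each of the 18 libraries (columns) as log2(CPM + 1), where 1 column is 1 library and grey marks a gene not listed in that table. The ribosomal depleted libraries show most members at high levels, and at e11.5 only 11 rows have values.

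The comparison that parts the members most is that of library kinds. At e11.5, in mRNA enriched libraries, 11 of the 60 members were listed, against 92.2% of all genes listed at e11.0. The 11 were the H1 genes Hist1h1c and Hist1h1e, the H2A genes Hist1h2ae, Hist1h2ao and Hist3h2a, the H2B genes Hist1h2bc, Hist2h2be and Hist3h2ba, the H3 gene Hist1h3c and the H4 genes Hist1h4d and Hist1h4i. Their sum was 35.4, 31.6 and 26.1 CPM in wild type and 31.7, 32.6 and 20.9 CPM in null, or 0.00209% to 0.00354% of the reads. Library kind, stage and table change together here and the tables were normalized separately, so these causes cannot be told apart and the values are set side by side with no test.

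Of the 49 members with no value at e11.5, 39 had a mean over 100 CPM in wild type at e11.0, with a median of 305 CPM and a highest value of 1458 CPM for Hist4h4, an H4 gene that lies outside the main clusters. Listed genes reached at least 1.01 CPM in 3 or more libraries of the e11.5 table. Over all genes, 54 of the 2290 with a mean over 100 CPM in wild type at e11.0 were not listed at e11.5, and 39 of these 54 were clustered histone genes. Hist4h4, at 1199, 1478 and 1696 CPM in the wild type libraries, was among them, and so was Hist2h2ac, an H2A gene, at 395, 416 and 387 CPM.

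**Figure D2:**
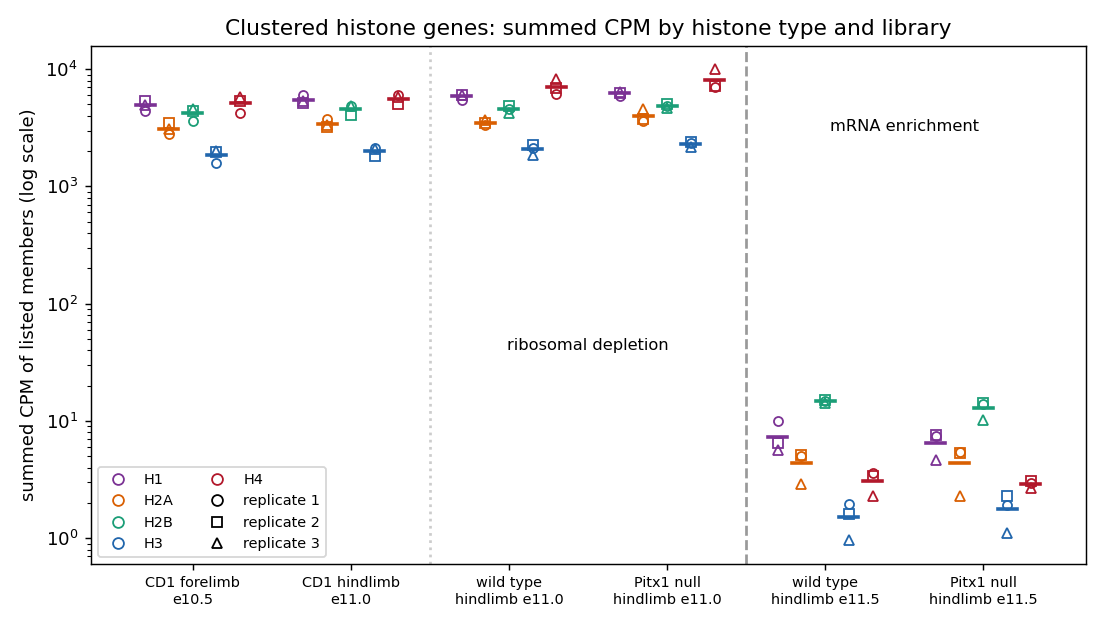
Summed CPM (log scale) of the listed members of each histone type in each library, by group, where symbols are replicates and bars are group means; the dashed line parts ribosomal depleted from mRNA enriched libraries and the dotted line parts the CD1 from the BALB/c table. At e10.5 and e11.0 every type sums to at least 1570 CPM, and at e11.5 the wild type sums lie between 0.96 and 15 CPM, with H2B highest.

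Among the 11 members listed at both stages, Hist2h2be stood nearest to its e11.0 level. This H2B gene was at 10.54, 12.8 and 9.84 CPM in wild type at e11.0 and at 8.84, 9.10 and 8.26 CPM at e11.5, a mean of 79% of the e11.0 level (84.2% in null). Its libraries at the 2 stages did not overlap in wild type but lay close together. Over all 12935 genes listed in both tables the median was 114% and the middle 50% of genes lay between 81.4% and 158%, so Hist2h2be lay a little below that range. It was the member with the longest annotated exon among the 11, with no 50-base stretch shared with another gene.

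Hist3h2a, the H2A gene of the small Hist3 cluster, came next, at 5.24, 5.005 and 5.505 CPM at e11.0 and 2.48, 2.62 and 1.66 CPM at e11.5 in wild type (42.9%). The exons of Hist3h2a overlap those of Trim17 and Gm44313, whose strands were not compared here, so reads on the shared bases may belong to another gene. Its lowest e11.5 value is the unstranded library. Hist1h2ao was at 4.52, 5.58 and 6.76 CPM at e11.0 and at 1.13, 1.26 and 0 CPM at e11.5, and at 0.0187 CPM in null replicate 3. Both replicate 3 libraries at e11.5 thus stood at or near 0, where 3 reads would be 0.0565 and 0.056 CPM, and 93.5% of the 50-base stretches of Hist1h2ao occur in other members. Hist3h2ba, the H2B gene next to Hist3h2a, lay between these and the other members: it was at 72.1, 88.7 and 94.5 CPM at e11.0 and at 4.70, 4.66 and 4.88 CPM at e11.5 (5.57%, 3.51% in null).

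The other 7 members stood at less than 1% of their e11.0 level. The linker histone gene Hist1h1c was at 1070, 1252 and 1905 CPM at e11.0 and at 6.70, 5.86 and 5.40 CPM at e11.5 in wild type (0.425%). The H4 gene Hist1h4d was at 1128, 1222 and 1090 CPM at e11.0 and 1.75, 1.07 and 0.527 CPM at e11.5, the lowest share of the 11 (0.0971%). Hist1h1e, another linker histone gene, was at 1018, 1097 and 720 CPM at e11.0 and 3.21, 0.589 and 0.282 CPM at e11.5, with the first e11.5 library above the others. These 3 genes were abundant in total RNA and within a few CPM of 0 after mRNA enrichment.

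Hist1h2ae was at 239, 264 and 322 CPM at e11.0 and at 1.44, 1.28 and 1.24 CPM at e11.5 (0.480%), although its annotated transcript ends with a poly(A) signal. Hist1h4i was at 379, 430 and 593 CPM and then at 1.86, 2.30 and 1.77 CPM (0.423%). Hist1h2bc, which has no stem-loop within 200 bases of its stop codon, was at 374, 359 and 285 CPM and then at 1.35, 1.28 and 1.17 CPM (0.374%). The H3 gene Hist1h3c, at 422, 446 and 388 CPM and then 1.97, 1.61 and 0.960 CPM, stood at 0.361%. In wild type no e11.5 value of these 4 genes came within 100-fold of an e11.0 value.

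**Figure D3:**
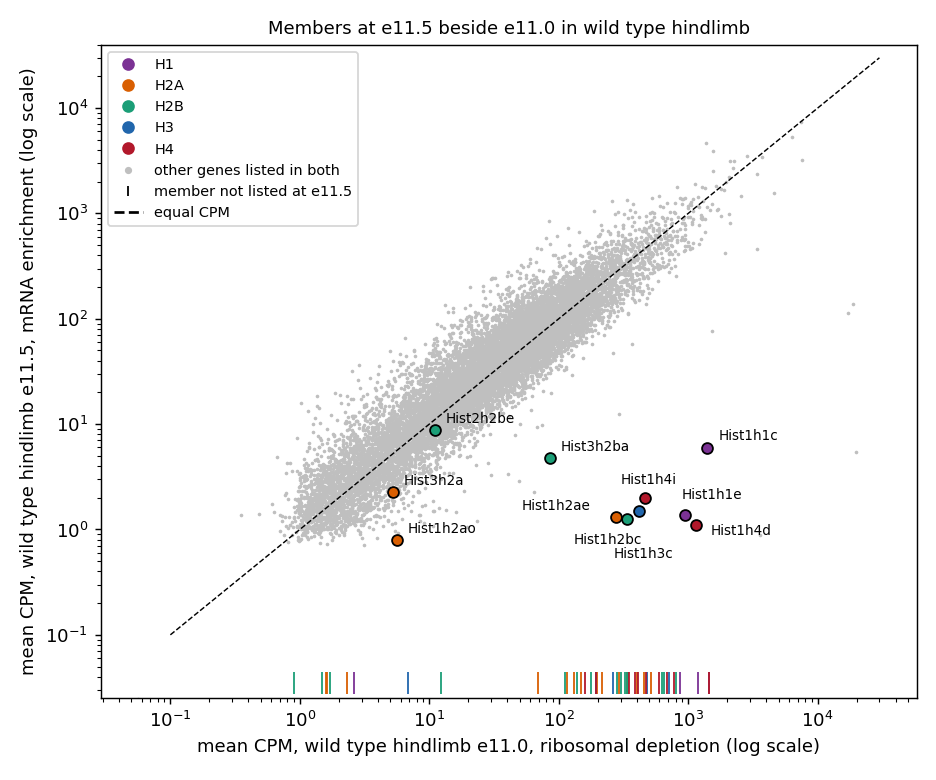
Mean CPM of each gene in wild type hindlimb at e11.5 (mRNA enrichment) against e11.0 (ribosomal depletion), both on log axes, with the 11 members listed in both tables coloured by type, other genes in grey and ticks at the foot for the members not listed at e11.5. Hist2h2be and Hist3h2a lie within the cloud of other genes near the line of equal CPM, and 7 members lie more than 100-fold below that line.

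Of the 12935 genes listed in both tables only 11 (0.0850%) stood under 1% of their e11.0 level in wild type, and 7 of these were members. Of 14 RNAs listed at e11.0 from a list drawn up as RNAs without an ordinary poly(A) tail, 4 were listed at e11.5, with a median of 2.51%. Whether every form of each RNA on that list, Neat1 among them, lacks a tail was not checked. Rmrp stood at 0.0247%, Rn7sk at 0.0273%, Malat1 at 4.99% and Neat1 at 34.3%, and the e11.0 means of the 14 ranged from 2.18 (Scarna17) to 19880 CPM (Rn7sk). The 11 replacement histone genes were all listed at both stages at a median of 120%. They include H2afx, in which the stem-loop was found and which stood at 80.4%. H2afz stood at 59.3%, H3f3a at 84.1%, H3f3b at 120% and the polyadenylated linker histone gene H1f0 at 161%. The 15 housekeeping mRNAs stood at a median of 99.6%, the 25 S phase genes at 101% and the 22 genes of histone mRNA processing and decay at 99.8%, with Slbp at 86.2%. Single genes of these lists went both ways: the replacement histones ranged from 59.3% to 788%, the S phase genes from 36.5% to 272% and the processing genes from 54% to 240%. Cell type marker lists went both ways. Medians were lower for erythroid (47.3%) and surface ectoderm genes (54.5%). They were higher for limb mesenchyme (144%), endothelial (172%), macrophage (182%) and muscle precursor genes (184%). No gene of the replacement histone, S phase, processing or housekeeping lists stood under 10%, as 8 of the 11 members did.

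Sequence features differed in part between the members with and without a value at e11.5. An annotated end with AATAAA was present in 5 of the 11 listed (Hist2h2be, Hist3h2a, Hist3h2ba, Hist1h1c and Hist1h2ae) and in 8 of the 49 not listed (Hist2h4 and Hist4h4 among them). The 3 of the 11 with the highest CPM per kb at e11.5, Hist3h2ba (7.73), Hist1h1c (3.84) and Hist2h2be (3.33), all carried it. Hist1h2ae and Hist3h2a carried it too, but ranked per kb below Hist1h4i and Hist1h3c, in which it was not found. The stem-loop was found in 9 of 11 and in 30 of the 34 that could be searched, and the median annotated exon length was 1138 against 508 bases. These are counts over few genes with sequence in common and were given no test.

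Hist2h2ac and Hist2h2be form a divergent pair whose starts lie 238 bases apart. Hist2h2ac lay far above Hist2h2be at e11.0, while only Hist2h2be had a value at e11.5. Hist2h2ac was at 399 ± 14.6 CPM in wild type at e11.0 and not listed at e11.5, while Hist2h2be was at 11.1 ± 1.53 and 8.73 ± 0.428 CPM. The line that follows gives the 250 bases before the start of Hist2h2ac from RefSeq (GRCm38.p6, chr3:96220881-96221130, minus strand), the first 12 of which, farthest from that start, lie in Hist2h2be. Capitals mark a TATA box, CCAAT boxes on either strand, and the octamer in its reverse complement.
Hist2h2ac: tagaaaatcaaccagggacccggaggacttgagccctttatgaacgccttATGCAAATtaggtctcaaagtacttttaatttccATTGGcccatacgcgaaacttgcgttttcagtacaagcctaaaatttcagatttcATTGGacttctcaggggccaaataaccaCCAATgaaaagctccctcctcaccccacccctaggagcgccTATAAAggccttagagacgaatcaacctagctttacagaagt

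The TATA box lay 42 bases before the Hist2h2ac start and the octamer 39 bases before that of Hist2h2be, so the 2 genes share 1 intergenic stretch with elements of both. Motifs were counted per gene, on either strand of any of its RefSeq promoters of 300 bases. Among the 52 members matched, CCAAT stood in 84.6% against 41.1% of all 27025 genes and the TATA box TATAAA in 55.8% against 15.7%. The octamer ATTTGCAT, to which Oct factors bind, stood in 23.1% against 1.97%. The octamer was found for 6 of 16 H2A and 6 of 14 H2B genes and for none of the 6 H1, 5 H3 and 11 H4 genes. CCAAT was found for all H1, H2A, H2B and H3 genes matched and for 3 of 11 H4 genes. Several of these promoters overlap because the genes are divergent neighbours, and a match is a description of letters only.

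Between CD1 hindlimb at e11.0 and forelimb at e10.5 the members differed little. Limb type and age change together in this comparison and cannot be told apart. Of the 59 members listed, 1 was called higher and 1 lower in hindlimb (3.39%), against 5.87% of all 13540 genes (2.41% higher and 3.46% lower), so the share of members called is below that of all genes. The members' median log2 fold change was 0.12, with 50 of 59 above 0, beside a median of 0.01 over all genes, of which 51.8% were above 0. The summed level was 16611, 20584 and 20365 CPM in forelimb and 22671, 19284 and 21428 CPM in hindlimb, and these groups overlapped.

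The H2B gene Hist1h2bj was at 198, 220 and 212 CPM in forelimb and 291, 238 and 274 CPM in hindlimb. Every hindlimb library lay above every forelimb library, as in 5.87% of all genes. It rose by 0.35 ± 0.07 (limma adjusted p = 0.0207), and 59.4% of its 50-base stretches occur in other members. Without forelimb replicate 3, hindlimb replicate 1 or hindlimb replicate 3 it was no longer called (limma adjusted p = 0.117, 0.0967 and 0.118), nor without the run term (0.565).

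Hist3h2a was at 3.96, 3.88 and 4.88 CPM in forelimb and 2.36, 1.89 and 3.89 CPM in hindlimb. Replicate 3 was the highest library of each group, and hindlimb replicate 3 reached the level of the lower forelimb libraries. It fell by 0.53 on the log2 scale (SE 0.12, limma adjusted p = 0.0274), with the hindlimb library lower in each of the 3 same-numbered pairs. The call was lost without forelimb replicate 2, hindlimb replicate 1 or hindlimb replicate 2 (limma adjusted p = 0.0865, 0.0914 and 0.122), and without the run term (0.967).

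Hist3h2ba, next to it, was at 21.6, 25.4 and 41.9 CPM in forelimb and 17.9, 13.1 and 37.4 CPM in hindlimb (log2 fold change -0.44 ± 0.12, limma adjusted p = 0.0696). It did not pass the test. Hist1h1t, the linker histone known from testis, was at 2.89, 1.55 and 1.89 CPM in forelimb and 3.24, 2.88 and 2.78 CPM in hindlimb (0.37 ± 0.15, limma adjusted p = 0.184). The groups overlapped in both genes. Among the genes around the clustered histones, 0 of 25 S phase genes and 0 of 22 histone processing genes were called in either direction by limma, with medians of 0.05 and 0.05. Of 11 replacement histone genes 1 was higher (H2afz, 0.19 ± 0.05, limma adjusted p = 0.0407) and of 19 histone chaperone genes 1 was higher (Asf1b, 0.22 ± 0.05, limma adjusted p = 0.0406). Of 10 erythroid markers 4 were higher in hindlimb (summed level 3763 to 3823 CPM in forelimb and 3851 to 5057 CPM in hindlimb), and their part in the histone values was not tested.

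Between Pitx1 null and wild type hindlimb at e11.0, 6 members were called higher in null and 0 lower. They were the H2A genes Hist1h2af, Hist2h2ab, Hist1h2ad and Hist1h2ae and the H4 genes Hist2h4 and Hist1h4i, each by 0.23 to 0.30 on the log2 scale. The share called higher was 10% of 60 members, beside 4.73% of all 14027 genes, of which 13.1% were called in either direction and 8.41% lower. No member was lower even at an unadjusted p under 0.05 by limma or by edgeR on the recovered reads, while 23 were higher by limma and 36 by edgeR. These were 38.3% and 60% of the members, beside 35.3% and 31.7% of all genes at that p in either direction. The limma share was thus near that of all genes in either direction. The shares of all genes that were higher or lower alone at that p were not counted, so the direction of the members has no such share beside it. The members' median was 0.15 with 52 of 60 above 0, beside a median of -0.07 over all genes, of which 37.7% were above 0.

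Hist1h2af was at 225, 244 and 407 CPM in wild type and 282, 279 and 533 CPM in null (0.30 ± 0.07, limma adjusted p = 0.0228). Hist2h2ab was at 63.6, 66.9 and 78.6 CPM in wild type and 77.6, 81.7 and 97.0 CPM in null (0.29 ± 0.07, limma adjusted p = 0.0261). Hist1h2ad was at 182, 190 and 217 CPM in wild type and 214, 206 and 306 CPM in null (0.28 ± 0.08, limma adjusted p = 0.0419). In each of these H2A genes replicate 3 was the highest library of its group, the null library was higher in all 3 same-numbered pairs, and the groups overlapped only because wild type replicate 3 lay above a null library of replicates 1 and 2.

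Hist1h2ae, the fourth H2A gene, was at 239, 264 and 322 CPM in wild type and 276, 294 and 429 CPM in null (0.26 ± 0.08, limma adjusted p = 0.0475). The H4 gene Hist1h4i was at 379, 430 and 593 CPM in wild type and 452, 470 and 776 CPM in null (0.26 ± 0.08, limma adjusted p = 0.0495). Hist2h4, the H4 gene of the Hist2 cluster, was at 120, 118 and 240 CPM in wild type and 145, 144 and 267 CPM in null (0.23 ± 0.06, limma adjusted p = 0.0409). Here too every null library lay above its same-numbered wild type library, and replicate 3 stood apart in both groups. Of these 6 genes Hist2h4 shares least of its sequence with other genes (1.01% of 50-base stretches) and Hist1h2af most (94%).

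**Figure D4:**
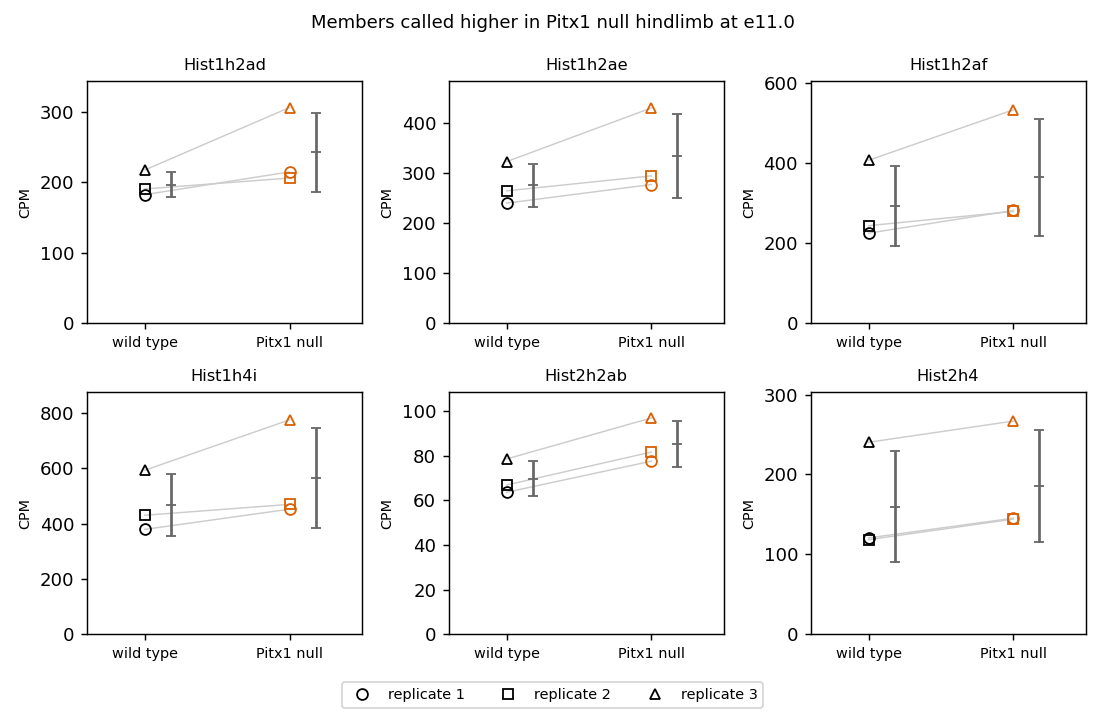
CPM of the 6 members called higher in Pitx1 null hindlimb at e11.0 in each library (wild type black, null orange, symbols by replicate, grey lines joining same-numbered libraries) with the mean and SD of each group beside them. In all 6 genes each null library lies above the wild type library of the same number, and replicate 3 is the highest of its group.

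Most other H2A, H3 and H4 genes had values of the same sign that did not pass the test. All 12 H4 genes had a log2 fold change above 0 (0.07 to 0.26, median 0.16) and so did all 6 H3 genes (0.08 to 0.33, median 0.18) and 16 of 18 H2A genes (median 0.20). Of the H2B genes 15 of 18 were above 0 (median 0.07), and of the H1 genes 3 of 6 (median 0.01). Differences between the types were not tested. Of genes not called, Hist2h3c2, an H3 gene, had the largest value: it was at 6.89, 6.96 and 6.74 CPM in wild type and 10.7, 9.17 and 7.18 CPM in null, with no overlap, as for 4.78% of all genes in that direction (0.33 ± 0.12, limma adjusted p = 0.0738). Hist1h2ao followed, at 4.52, 5.58 and 6.76 CPM in wild type and 5.42, 6.85 and 8.58 CPM in null (0.26 ± 0.12, limma adjusted p = 0.151).

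Summed over all members, wild type libraries held 21689, 23573 and 24017 CPM and null libraries 23737, 24704 and 27767 CPM. The sum was higher in null in each same-numbered pair, though null replicate 1 lay between wild type replicates 2 and 3. The H4 sum was 6147, 6977 and 8198 CPM in wild type and 7024, 7208 and 9946 CPM in null, and the H1 sum 5514, 6000 and 6044 CPM in wild type and 5897, 6302 and 6421 CPM in null.

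With the replicate number as a block 15 members were called higher (25%, beside 7.53% of all genes), and after TMM scaling (a trimmed-mean scaling between libraries) also 15 (beside 7.61%), all 6 included both times. edgeR on the recovered reads called 20 higher (beside 8.89%), and 21 were higher in the authors' deposited table (beside 12.2%). TMM scaling turned the split over all genes from 664 higher and 1179 lower to 1067 and 520. The member calls, like those over all genes (1843 with all libraries), rest on the run term and on single libraries. Without the run term limma called 0 members, where 5 of all genes were called. It also called 0 members without wild type replicate 1 or 3, where 116 and 193 of all genes were called. Without null replicate 1, 2 or 3 it called 0 members, where 1032, 232 and 196 of all genes were called. Without wild type replicate 2 it called 31 (30 higher and 1 lower), where 5273 of all genes were called.

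Other RNAs moved with these groups. Of 25 S phase genes 2 were called higher and 1 lower (median -0.02), and of 22 histone mRNA processing genes 0 were called by limma (median -0.10), with Slbp at 147 ± 7.97 (wild type) and 145 ± 8.40 (null) CPM. Of 18 G2 and M phase genes 1 was higher (median -0.14). The 14 RNAs from the list drawn up as without a poly(A) tail had a median of 0.17 with 0 called by limma. Of the cell type markers, 5 of 10 surface ectoderm genes were higher, 6 of 8 endothelial, 3 of 4 muscle precursor and 6 of 9 limb mesenchyme genes (Pitx1 itself among that list) were lower, and 1 of 11 erythroid genes was higher. The erythroid sum ranged over 4846 to 11213 CPM in wild type and 6128 to 17720 CPM in null, and the ectoderm sum over 336 to 823 and 442 to 969 CPM. Their part in the histone result was not tested, and in whole limb buds a change in the share of cycling cells and one in RNA per cell cannot be told apart.

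The replacement histones did not all go the same way at e11.0: of 11 genes 1 was higher and 3 lower in null. H2afz, the H2A.Z gene, rose from 715 ± 81.4 to 911 ± 25.2 CPM (0.35 ± 0.09, limma adjusted p = 0.0281). H1f0 fell from 306 ± 21.1 to 252 ± 3.59 CPM (-0.28 ± 0.07, limma adjusted p = 0.0287). H3f3b was at means of 737 and 707 CPM (-0.06 ± 0.07, limma adjusted p = 0.565).

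At e11.5, 0 of the 11 listed members were called higher in null and 1 lower (9.09%, beside 10.8% of all 13478 genes, 2.83% higher and 7.96% lower). Hist3h2ba was at 4.70, 4.66 and 4.88 CPM in wild type and 3.34, 3.97 and 3.10 CPM in null, with no overlap, as for 11% of all genes in that direction. It fell by 0.37 on the log2 scale (SE 0.10, limma adjusted p = 0.0449). With the replicate block it was not called (limma adjusted p = 0.0509), nor without the run term (0.42), nor in any of the 6 fits that left out 1 library (limma adjusted p = 0.0656 to 0.268). Neither limma nor edgeR put any other member at an unadjusted p under 0.05. The share of members at that p was thus 9.09%, beside 30% of all genes by limma and 32.1% by edgeR.

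Hist1h1e was at 3.21, 0.589 and 0.282 CPM in wild type and 1.09, 1.11 and 0.317 CPM in null at e11.5 (-0.19 ± 0.29, limma adjusted p = 0.704). Wild type replicate 1 sets its sign, since without it the value was 0.25. Hist1h2ao was at 1.13, 1.26 and 0 CPM in wild type and 1.42, 1.61 and 0.0187 CPM in null (0.14 ± 0.10, limma adjusted p = 0.390). Hist2h2be, the member with the highest share of its e11.0 level, was at 8.84, 9.10 and 8.26 CPM in wild type and 9.62, 8.44 and 6.32 CPM in null (-0.11 ± 0.10, limma adjusted p = 0.486). Of the 25 S phase genes 6 were higher and 0 lower in null at e11.5 (median 0.12), and of the 18 G2 and M phase genes 7 were higher and 0 lower (median 0.12). Most clustered histone genes have no value at that stage to set beside them.

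**Figure D5:**
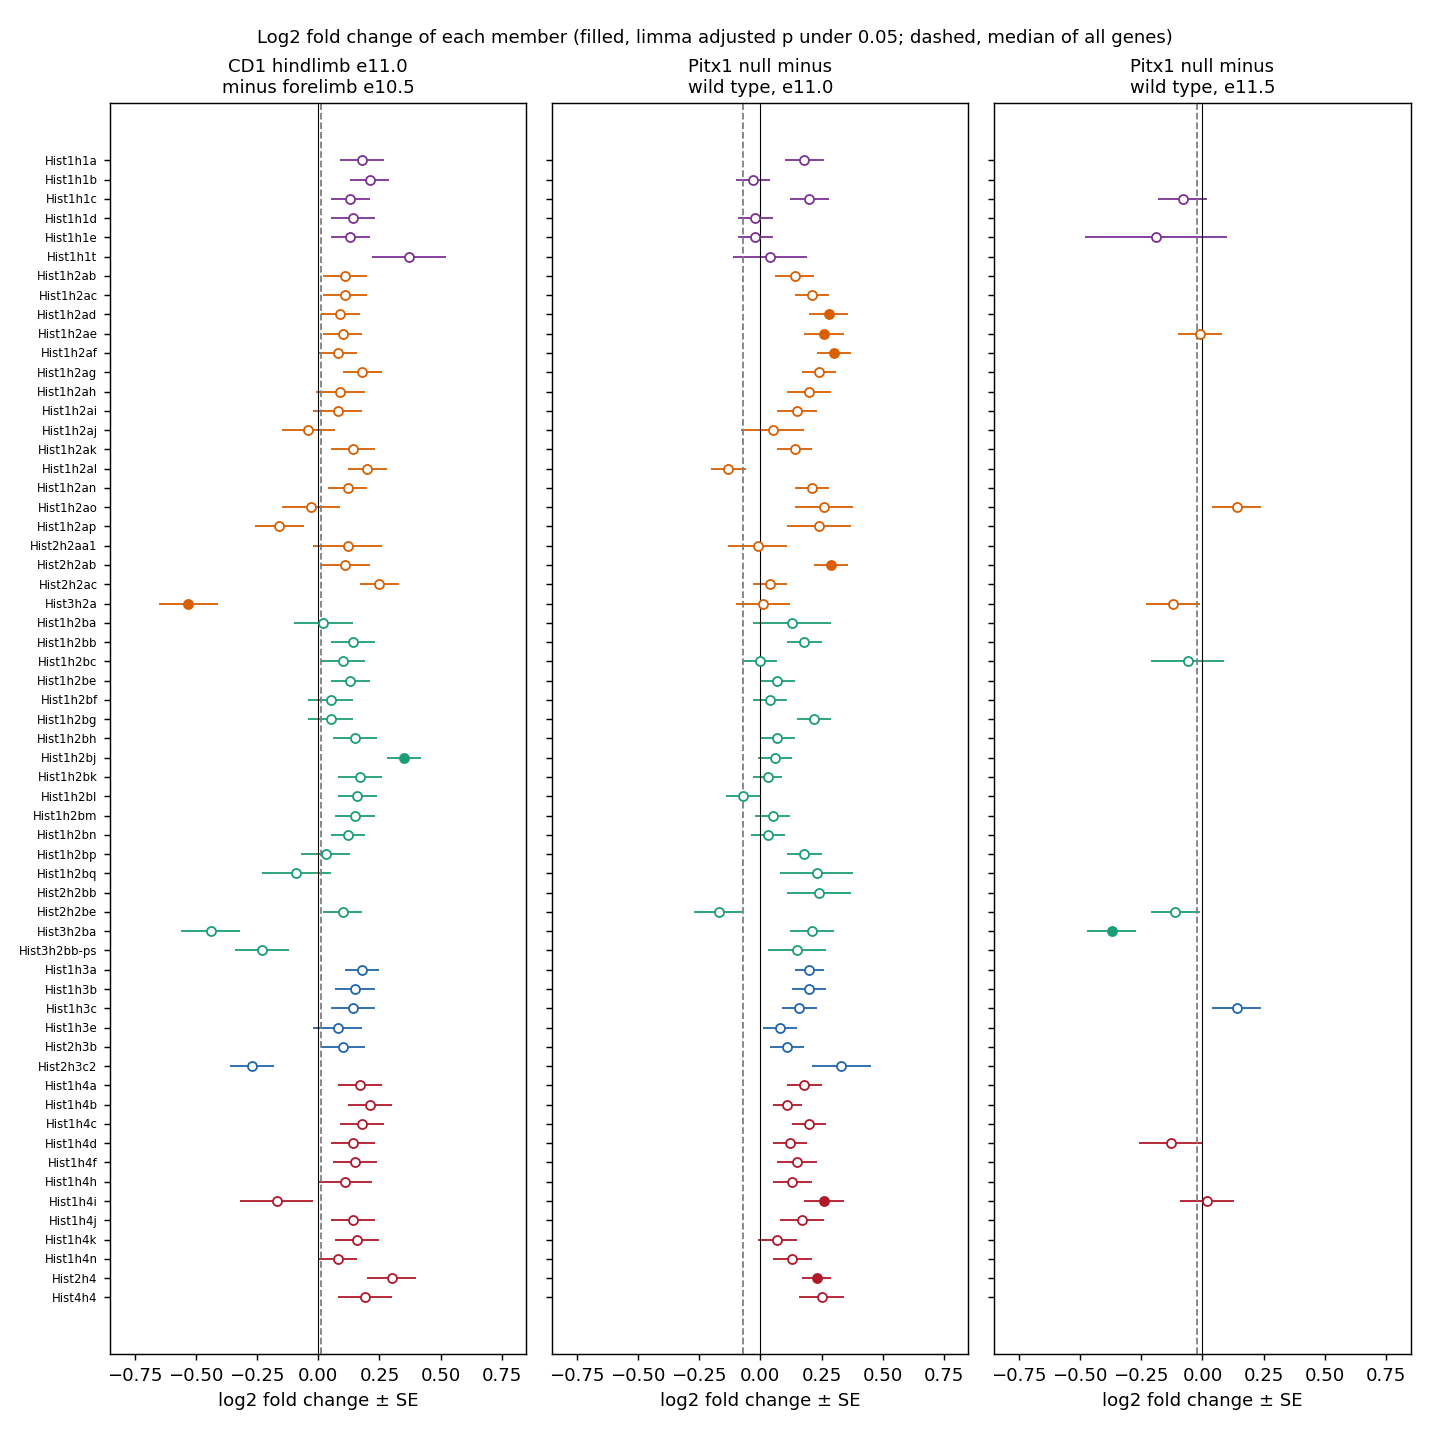
Log2 fold change with its SE (log2(CPM + 1) scale) of each member in the 3 comparisons, coloured by histone type, filled where called by limma, with a dashed line at the median of all genes. In the middle panel 52 of 60 members lie above 0, and the right panel holds the 11 members listed at e11.5.

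The 2 hindlimb groups of wild type embryos at e11.0, CD1 and BALB/c, come from separate tables and differ in strain, so their levels are set side by side with no test. Of 59 members 6 (10.2%) had means more than 2-fold apart, against 4% of all 13247 genes in both tables. Hist1h2al was at 832, 708 and 787 CPM in CD1 and 143, 131 and 174 CPM in BALB/c. Hist1h4i, in contrast, was at 98.2, 86.9 and 214 CPM in CD1 and 379, 430 and 593 CPM in BALB/c, and Hist4h4 at 770, 642 and 600 CPM in CD1 and 1199, 1478 and 1696 CPM in BALB/c. Hist3h2ba lay at 22.8 ± 12.9 and 85.1 ± 11.6 CPM. In these 4 genes no library of one strain reached the range of the other.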

How the data were processed

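Read counts per gene, made by the authors with STAR and featureCounts against GRCm38 (mm10) per the submitters' processing notes, were deposited in 3 tables as CPM, and each column sums to 1000000. The authors' deposited tables also hold edgeR log2 fold changes and average log2 CPM, a likelihood-ratio score, a p-value and an adjusted p-value, per the file headers. Versions and the strand and multi-mapping settings are not given in the sources used here. CPM values were whole multiples of 1 read (within 0.01 read) for 100% of values, which gave the depths and the reads for a count test. Floors cover counting error only: PCR copies of a molecule cannot be told from separate molecules here.

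limma 3.58.1 (R 4.3.3) was fitted to log2(CPM + 1) in 1 table at a time, two-sided, with terms for group and for run (replicates 1 and 2 against replicate 3, whose run the CD1 titles do not name), and Benjamini-Hochberg adjustment over all listed genes. Every listed gene reached 1 CPM in at least 3 libraries. edgeR 4.0.16 (quasi-likelihood, TMM) was run on the recovered reads and called 993 genes in CD1, 1949 at e11.0 and 1762 at e11.5. The fits were tested on simulated reads with large fold changes and no run effect. That test does not bear on changes as small as those of the members or on the run term. Same-numbered libraries deviated together from their group means (correlations across genes: CD1 0.69, 0.80, 0.94; e11.0 0.66, 0.64, 0.86; e11.5 0.73, 0.83, 0.91), so a replicate block was fitted. Named members were, per comparison, up to 6 called in each direction and 2 not called with the largest fold change, the 3 of highest CPM per kb per table, and all with a value at both BALB/c stages. Hist2h2ac, Hist4h4, Hist1h2al and the strain values were chosen after values were seen. Members and lists were chosen with earlier results of these data known.

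Annotation and transcripts were GENCODE M 21 (58 members matched by identifier, 2 by symbol). Without a genome sequence, the stem-loop search read annotated transcripts only. Allowing 1 mismatch, added after seeing the data, gave 40 members and 63 other coding genes (0.3%), and in Hist1h1a the annotated end cuts the motif.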

Additional observations from a re-analysis of the deposited data

Results flagged for a closer look

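Hist3h2ba, an H2B gene of the Hist3 cluster, had null values on opposite sides of wild type at the 2 stages when same-numbered libraries were set side by side. At e11.0 each null library lay above the wild type library of the same number (86.9, 95.8 and 113 against 72.1, 88.7 and 94.5 CPM, log2 fold change 0.21 ± 0.09, limma adjusted p = 0.108), so it was not called, and the groups overlapped. At e11.5 each lay below it (3.34, 3.97 and 3.10 against 4.70, 4.66 and 4.88 CPM, -0.37 ± 0.10, limma adjusted p = 0.0449), a call lost with the replicate block (0.0509), without the run term (0.42) and in all 6 fits without 1 library (0.0656 to 0.268). The e11.5 value minus the e11.0 value was -0.58 on the log2 scale. This difference was not tested, since the stages lie in tables that were normalized separately and differ in library kind.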

How the results depend on the processing

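Of the members called in CD1 (2), at e11.0 (6) and at e11.5 (1), 0, 0 and 0 were called by limma without the run term. The authors' deposited table called 5, 21 and 1, edgeR on the recovered reads 2, 20 and 1 (2, 7 and 1 without TMM, a fit added after seeing the data), TMM scaling 2, 15 and 1, and the replicate block 2, 15 and 0. Replicates 1 and 2 alone gave 1, 0 and 0. Leaving out 1 library gave 0 to 5 in CD1, 0 to 31 at e11.0 and 0 to 0 at e11.5. Calls over all genes moved too, from 795, 1843 and 1455 to 13, 5 and 11 without the run term. The authors' deposited table called 1689, 2895 and 2644 of all genes, TMM scaling 857, 1587 and 1578, and the block 640, 3442 and 1437. Replicates 1 and 2 alone gave 471, 199 and 483 of all genes. Leaving out 1 library gave 394 to 1191, 116 to 5273 and 433 to 2627. Among the members the block changed no call in CD1. Hist1h1e at e11.5 turned from -0.19 to 0.04 in the authors' deposited table and to 0.25 without wild type replicate 1 (-0.56 to 0.25 without 1 library). The median share of the e11.0 level left at e11.5 among the 11 members in both tables was 0.425% in wild type, 0.541% in replicates 1 and 2 alone, 0.38% in null and 0.393% to 0.516% without 1 library. In no case was the cause tested. At the lowest depth 1 read is worth 0.0575 CPM.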

Other observations

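Hist1h2ba, the H2B gene known from testis, was at 54.2 CPM in CD1 forelimb replicate 3 and 44.0 CPM in CD1 hindlimb replicate 3, and at 1.31 to 1.93 CPM in the other 4 CD1 libraries. The BALB/c libraries at e11.0 held it at 0.978 to 1.87 CPM. In CD1, replicate 3 also held more of Hist2h2aa1 (4.32 and 4.97 CPM against 0.531 to 1.15 CPM) and Hist1h2ao (10.9 and 12.1 CPM against 2.88 to 4.12 CPM). At e11.0 in BALB/c the replicate 3 libraries stood apart in other members: Hist1h4c was at 608 and 709 CPM against 291 to 354 CPM, and Hist1h4j at 544 and 696 CPM against 280 to 340 CPM. Over all members the share with a mean difference beyond 0.5 (log2) between replicate 3 and replicates 1 and 2 was 23.7% in CD1 and 16.7% at e11.0, beside 25.4% and 18.7% of all genes. At e11.5 it was 45.5%, 5 of 11 members and all 5 lower in replicate 3, beside 17.1% of all genes. Strand was not kept in these replicate 3 libraries, and the 5 members were at 0 to 3.21 CPM over the e11.5 libraries. The part of strand or of the low level in this difference was not tested.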
